A study of Mus musculus with 18 samples.

Results

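The genes examined encode the subunits of oxidative phosphorylation, the chain of mitochondrial enzymes that passes electrons from NADH and succinate to oxygen and makes ATP. Probe sets were taken as members where the platform annotation gave them a single gene symbol that begins with Nduf, Uqcr, Atp5 or Cox and a digit from 4 to 8, or that is Sdha, Sdhb, Sdhc, Sdhd, Cycs or Cyc1. That rule found 82 genes on 148 of 36701 probe sets, with 101 on the chip type MG_U74Av2, 14 on MG_U74Bv2 and 33 on MG_U74Cv2. The rule reads gene symbols alone and so also takes in 7 factors that assemble complex I. The member genes were chosen with earlier results of the same data known.

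Electrons enter the chain at complex I, the NADH dehydrogenase, and at complex II, the succinate dehydrogenase, and reach complex III through ubiquinone. Cytochrome c carries them on to complex IV, the cytochrome c oxidase, where oxygen is reduced. Complexes I, III and IV pump protons out of the mitochondrial matrix, and complex V, the ATP synthase, uses their return to make ATP. Most subunits are encoded in the nucleus and imported, and a small core is encoded in mitochondrial DNA; the mitochondrially encoded subunits are not analysed here. Marrow stromal cells in culture are commonly described as drawing much of their ATP from glycolysis while keeping a working respiratory chain.

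The study profiled stromal cell colonies of adult mouse bone marrow, each grown from a single cell in DMEM with 10% fetal bovine serum. CD34, a surface sialomucin, was stained and read by flow cytometry, and the labels estimate the purity at 100% and name other marrow cells as a possible contaminant. There were 3 RNAs of CD34+ clones and 3 RNAs of CD34- clones, and every RNA was read on 1 array of each of 3 Affymetrix chip types, which makes 18 arrays. No strain, sex or agent is given in the labels for either group, and it is not stated whether the RNAs within a group stem from different colonies or cultures. A p-value here weighs a difference against the scatter among these RNAs, which may be technical. CD34 status and clone cannot be told apart if a group holds 1 clone. The arrays are of bulk RNA, in which fewer cells of a type and less RNA per cell cannot be told apart.

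Subunit transcripts of complexes I, III, IV and V and of cytochrome c were among those with higher signals in CD34+ clones, each of the higher calls by less than 1 on the log2 scale. On MG_U74Av2, 76 of the 101 member probe sets passed the filter on low signals, and 18 of them (23.7%) were higher in CD34+ clones at an adjusted p under 0.05 in limma, where 8.21% of all 7634 probe sets tested were. Only 1 (1.32%) was lower, against 6.69% of all. The largest rise among the called probe sets was that of Ndufc1, a membrane-arm subunit of complex I, with a log2 difference of 0.87, and the fall, with one of -1.80, was that of Cox6a2, the heart and skeletal muscle form of a complex IV subunit. Of the 76, 56 had a positive difference, and in 28 every CD34+ RNA lay above every CD34- RNA, where 18.8% of all probe sets did so. In 3 every CD34+ RNA lay below, where 15.7% of all did.

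A probe set was tested if, on 3 or more of the 6 arrays, its deposited signal was above the 40th percentile of that array. That filter let 72 of the 76 through on all 6 arrays, and 1, Cox6a2, through the CD34- arrays alone, so that this probe set had to differ to be tested. The count of higher members was 9 without the second CD34+ RNA and 10 without the third. The share of all probe sets called in these 2 fits is not given. Signals are in intensity units after quantile normalization over the 6 arrays of a chip type, and differences are CD34+ minus CD34- on the scale of log2(signal + offset), with the standard error of the fit. An exact permutation test of 3 against 3 RNAs cannot go below p = 0.1, so the tests given are those of limma, which shares the spread over all probe sets of a chip type.

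With 1 probe set for each gene, 79 of the 82 genes were tested, 17 (21.5%) were higher and 1 (1.27%) was lower, where 4.38% of all 11969 genes were higher and 3.5% lower. Among the 65 genes read on MG_U74Av2 the same 17 (26.2%) and 1 (1.54%) stood against 8.47% and 6.94% of 5748 genes. An unadjusted p under 0.05, in either direction, was reached by 28 of the 79 genes and by 2635 of all 11969. On MG_U74Av2 it was reached by 27 of the 65 and by 1720 of the 5748. The median log2 difference was 0.19 over the 79 genes and 0.02 over all genes. Without the 7 factors that assemble complex I, 17 of 72 genes (23.6%) were higher and 1 (1.39%) lower, with a median of 0.17. The median was 0.22 in complex I, 0.06 in complex II, 0.18 in complex III, 0.07 in complex IV and 0.23 in complex V. Higher genes were 8 of 31 in complex I, 0 of 4 in complex II, 2 of 8 in complex III, 4 of 14 in complex IV and 2 of 14 in complex V, with cytochrome c as the other; differences between complexes were not tested. The medians of complexes I, II, III, IV and V were above 0 with the arrays scaled to a common median or a common trimmed mean as well.

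**Figure D1:**
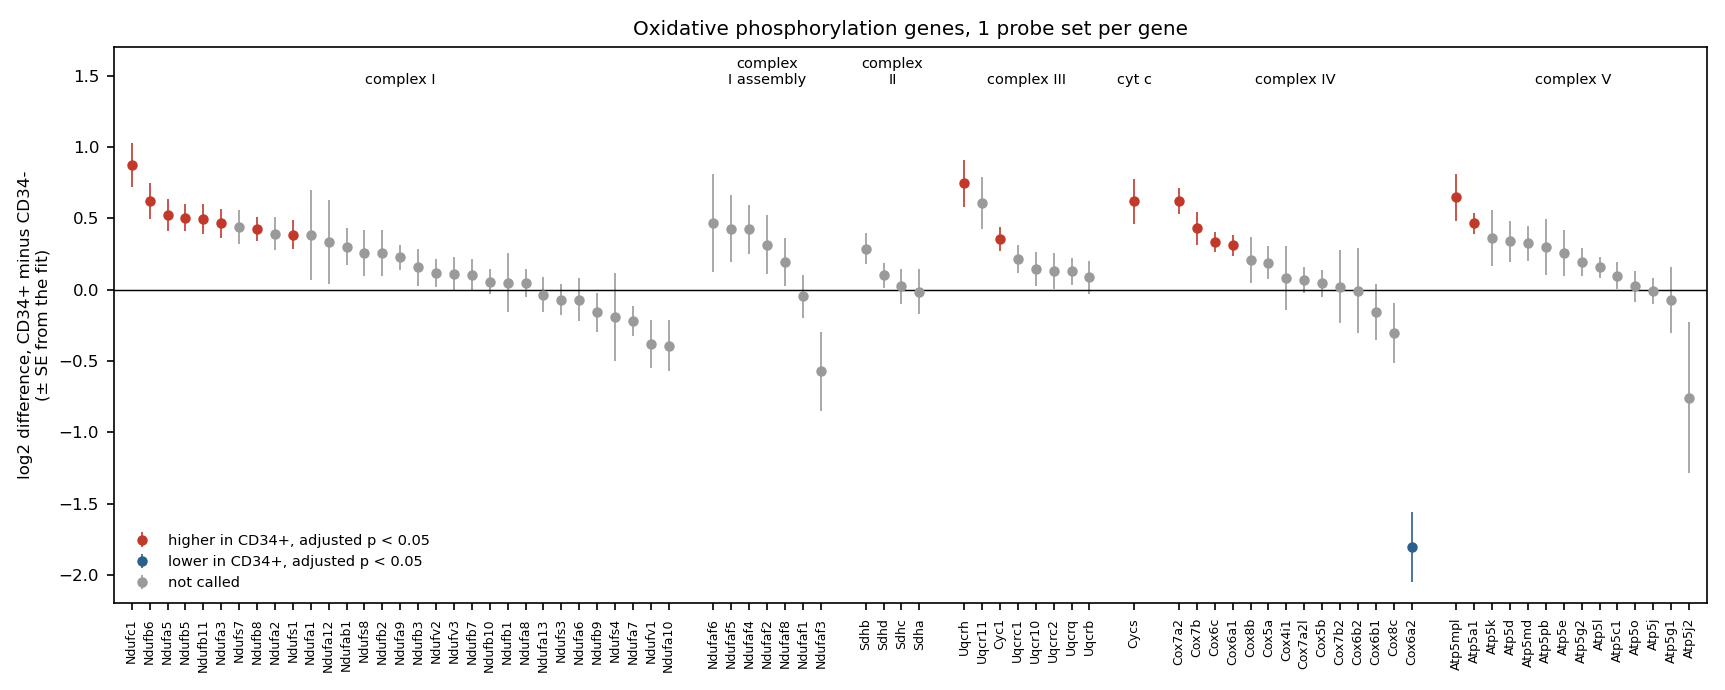
Log2 difference (CD34+ minus CD34-, with the standard error of the fit) of 79 oxidative phosphorylation genes, 1 probe set each, grouped by respiratory complex and ordered within it. Red points are the 17 genes higher and the blue point, Cox6a2, the 1 lower at an adjusted p under 0.05; complex III is the group of several genes in which 8 of 8 lie above 0.

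Cd34 read 938, 787 and 919 in the CD34+ RNAs, against 172, 59.9 and 128 in the CD34- RNAs on one of its probe sets, so the labels and the transcript went together. Among 13 stromal marker genes on the arrays, 12 were tested, and 2 were higher and 6, with the collagens Col1a1, Col1a2 and Col3a1, lower in CD34+ clones. All 12 were read on MG_U74Av2, where 8.47% of genes were higher and 6.94% lower. Their summed signals were 96437 to 105394 in CD34+ and 133214 to 146558 in CD34- RNAs. Of 18 haematopoietic markers on the arrays, 6 were tested, with 0 called by limma and 0 at an unadjusted p under 0.05, and their summed signals overlapped (2168.3 to 2759 in CD34+ and 2301 to 2672 in CD34- RNAs). Over the 6 RNAs, Csf1r read 611 to 786, Elane 341 to 602 and Camp 238 to 513. Cd68 read 247 to 303, Cd79a 121 to 393 and Hba-a1 78.5 to 614. Whether these signals stem from other marrow cells was not tested. Ptprc, the pan-leukocyte antigen CD45, read 21.1, 23.9 and 23.5 in the CD34+ RNAs, against 21.7, 18.3 and 28.9 in the CD34- RNAs on the brightest of its 3 probe sets, which is below the level at which probe sets were tested, as were Itgam, Kit and Lyz2. Of 6 endothelial markers 1 was tested, Pecam1, and it was not called by limma, though its unadjusted p was under 0.05. It read 166, 250 and 78.1 in the CD34+ RNAs, all below 385, 289 and 313 in the CD34- RNAs (log2 difference -0.89 ± 0.31, adjusted p = 0.0854). On MG_U74Av2 the ratio of 3′ to 5′ signal, a sign of RNA integrity, was 0.747 ± 0.0406 in CD34+ and 0.818 ± 0.0148 in CD34- RNAs for Gapdh (SD, n = 3 each), and 1.07 ± 0.0312 in CD34+ and 1.15 ± 0.0498 in CD34- RNAs for actin. Neither ratio overlapped between the groups, RNA concentrations did not overlap either (0.421 to 0.721 µg/µl in CD34+ and 0.989 to 1.38 µg/µl in CD34- RNAs), and the part of these in the results below was not tested.

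Promoters of nuclear respiratory chain genes are known for binding sites of NRF1, of ETS factors such as GABP, and of YY1. RefSeq promoter windows (GRCm38.p6, 250 bases before to 50 after the start) were given for 67 of the 82 genes. They were searched on both strands for the cores GCGCATGC of NRF1, CCGGAAG of ETS factors and AAGATGGCG of YY1. The ETS and YY1 cores can overlap in the letters AAG, and the NRF1 core can overlap its own reverse complement. The NRF1 core stood in windows of 12 of the 67 genes (17.9%), where 3.05% of all 27025 genes in the table held it. For the ETS core the counts were 18 (26.9%) against 9.93%, and for the YY1 core 7 (10.4%) against 1.64%. Among the 12 of the 17 higher genes that had a window, 5 (41.7%) held at least 1 of the cores, and among the other 55 member genes 25 (45.5%) did. All genes of the table include non-coding ones, and a match is a description, not a bound site.

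For 3 of the higher genes the 180 bases before the start are shown, read on the gene's strand, because they hold such a core there; capitals mark the matches. In Cox6a1 (chr5:115348959-115349138, minus strand) the NRF1 core stands on both strands in overlap, beginning 162 bases before the start, with an ETS core on the reverse strand 16 bases before it. In Cycs (chr6:50566570-50566749, minus strand) the NRF1 core on the reverse strand begins 60 bases before the start, and in Uqcrh (chr4:116075071-116075250, minus strand) the ETS core on the reverse strand begins 10 bases before it.
Cox6a1: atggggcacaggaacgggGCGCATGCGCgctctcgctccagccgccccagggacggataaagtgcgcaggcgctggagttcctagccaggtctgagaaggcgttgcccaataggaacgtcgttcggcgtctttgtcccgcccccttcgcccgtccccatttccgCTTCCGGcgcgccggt
Cycs: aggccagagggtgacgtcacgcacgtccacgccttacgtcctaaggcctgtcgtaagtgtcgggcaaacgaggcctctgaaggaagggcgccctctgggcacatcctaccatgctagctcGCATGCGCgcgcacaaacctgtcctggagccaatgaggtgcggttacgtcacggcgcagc
Uqcrh: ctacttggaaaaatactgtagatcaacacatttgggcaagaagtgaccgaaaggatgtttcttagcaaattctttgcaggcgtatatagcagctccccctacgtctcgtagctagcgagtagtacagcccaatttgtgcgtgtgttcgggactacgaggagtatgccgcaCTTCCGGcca

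Complex I is the largest of the complexes, with a matrix arm that takes electrons from NADH and a membrane arm that pumps protons. Of its 31 tested genes, 8 were higher in CD34+ clones and 0 lower by limma (13 at an unadjusted p under 0.05 in either direction), and 23 had a positive difference. Of all 11969 genes, 2635 reached that unadjusted p. Ndufc1, an accessory subunit of the membrane arm, read 2219, 2519 and 3361 in the CD34+ RNAs, against 1507, 1477 and 1304 in the CD34- RNAs. All CD34+ RNAs were above all CD34- RNAs, with the third CD34+ RNA highest (log2 difference 0.87 ± 0.15, adjusted p = 0.00572).

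Ndufb6, another membrane-arm accessory subunit, read 4903, 5668 and 5845 in the CD34+ RNAs, against 3088, 3387 and 4184 in the CD34- RNAs, without overlap (log2 difference 0.62 ± 0.13, adjusted p = 0.0109). The signals of Ndufb5 were 7735, 7769 and 7753 in the CD34+ RNAs, against 5827, 4788 and 5805 in the CD34- RNAs. The 3 CD34+ values lay within a narrow band above the others (log2 difference 0.50 ± 0.09, adjusted p = 0.00747). For Ndufb11, an X-linked subunit, they were 3961, 3648 and 4364 in the CD34+ RNAs, against 3062, 2667 and 2721 in the CD34- RNAs. Ndufb8, whose protein is a common marker of assembled complex I, read 4865, 4413 and 4537 in the CD34+ RNAs, against 3546, 3345 and 3349 in the CD34- RNAs. In neither did the groups overlap (log2 differences 0.49 ± 0.10, adjusted p = 0.013, and 0.43 ± 0.09, adjusted p = 0.0109).

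Ndufa3, a small accessory subunit, read 3145, 3345 and 3409 in the CD34+ RNAs, against 2546, 2158 and 2446 in the CD34- RNAs. Its groups were apart, by about as much as those of Ndufb11 (log2 difference 0.46 ± 0.10, adjusted p = 0.0147). Ndufa5, an accessory subunit of the matrix arm, read 3579, 3902 and 3474 in the CD34+ RNAs, against 2299, 2416 and 2891 in the CD34- RNAs, with the third CD34- RNA nearest to the CD34+ RNAs (log2 difference 0.52 ± 0.11, adjusted p = 0.0137). Ndufs1, the large iron-sulfur subunit on the path of electrons from NADH, read 1753, 1901 and 1812 in the CD34+ RNAs, against 1339, 1379 and 1433 in the CD34- RNAs. It was the sole core subunit of complex I among the calls, and its groups did not overlap (log2 difference 0.38 ± 0.10, adjusted p = 0.0342).

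The other core subunits, which carry the flavin and the iron-sulfur clusters, did not pass the test. Ndufv1, which binds NADH and the flavin, read 4235, 4206 and 3742 in the CD34+ RNAs, against 5049, 7056 and 4172 in the CD34- RNAs, so the groups overlapped (log2 difference -0.38 ± 0.17, adjusted p = 0.169); without the third CD34- RNA, Ndufv1 and Ndufa7, an accessory subunit, were called lower (log2 differences -0.55 and -0.32). Ndufv2, Ndufs3 and Ndufs8 had log2 differences of 0.12 ± 0.10, -0.07 ± 0.11 and 0.26 ± 0.16. Ndufs7, which holds the last iron-sulfur cluster before ubiquinone, is on MG_U74Bv2 and read 9789, 9789 and 10772 in the CD34+ RNAs, against 7538, 6845 and 7946 in the CD34- RNAs; its groups were apart, yet the adjusted p was 0.11 (log2 difference 0.44 ± 0.12). The lowest of complex I was Ndufa10, an accessory subunit of the membrane arm, at 595, 575 and 407 in the CD34+ RNAs, against 610.0, 817 and 682 in the CD34- RNAs, below in every RNA but not called (log2 difference -0.39 ± 0.18, adjusted p = 0.178).

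Ndufb5, Ndufb6 and Ndufc1 were called in each of the 6 fits that left out 1 RNA. Ndufs1 was called only without the third CD34- RNA (adjusted p up to 0.134 otherwise). Ndufa3 was not called without the second or the third CD34+ RNA, nor Ndufa5 without the second CD34+ or the first CD34- RNA, with adjusted p up to 0.0667 and 0.0674. Ndufb11 was not called without the third CD34+ RNA and Ndufb8 not without the first (adjusted p 0.0506 and 0.0525). Log2 differences of these 8 genes stayed above 0 in all fits.

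Factors that assemble complex I and are not part of it, named Ndufaf, numbered 7 and had 0 calls in limma in either direction, with 1 at an unadjusted p under 0.05. Ndufaf4, whose product acts early in assembly, read 455, 398 and 494 in the CD34+ RNAs, against 302, 383 and 284 in the CD34- RNAs on MG_U74Av2 and 880.1, 1148 and 1169 in the CD34+ RNAs, against 844, 645 and 541 in the CD34- RNAs on MG_U74Bv2. Both probe sets were higher in each CD34+ RNA than in any CD34- RNA, by 0.42 ± 0.17 and 0.59 ± 0.21 on the log2 scale (adjusted p = 0.137 and 0.203). Ndufaf3 lay the other way, at 299.7, 320.3 and 254 in the CD34+ RNAs, against 608, 329 and 556 in the CD34- RNAs (log2 difference -0.57 ± 0.28, adjusted p = 0.348).

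Complex II, which is also an enzyme of the citrate cycle, has no mitochondrially encoded subunit. Its 4 genes gave 0 calls in limma, with 1 at an unadjusted p under 0.05, and the median log2 difference was 0.06, beside 0.07 in complex IV, with an order that changed between settings. Sdhb, the iron-sulfur subunit, read 3630.0, 3315 and 3859 in the CD34+ RNAs, against 3255, 2729 and 2848 in the CD34- RNAs. It was the subunit with separate groups, on MG_U74Av2 (log2 difference 0.29 ± 0.11, adjusted p = 0.104) and on MG_U74Bv2 (log2 difference 0.32 ± 0.14, adjusted p = 0.299), without passing the test. Sdha, the flavoprotein, read 393, 524 and 499 in the CD34+ RNAs, against 488, 443 and 491 in the CD34- RNAs. Sdhc, a membrane anchor, read 2261, 2628 and 2089.8 in the CD34+ RNAs, against 2029, 2313 and 2523 in the CD34- RNAs, and Sdhd, the other anchor, read 4617, 4769 and 5228 in the CD34+ RNAs, against 4269, 4737 and 4617 in the CD34- RNAs. All of these overlapped, with log2 differences of -0.01 ± 0.16 for Sdha, 0.02 ± 0.12 for Sdhc and 0.10 ± 0.09 for Sdhd.

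In complex III, which hands electrons from ubiquinol to cytochrome c, all 8 tested genes had a positive difference and 2 passed the test. Uqcrh, the acidic hinge protein that helps cytochrome c dock, read 4228, 5244 and 4553 in the CD34+ RNAs, against 2108, 2986 and 3326 in the CD34- RNAs. Its CD34+ RNAs were all above its CD34- RNAs (log2 difference 0.75 ± 0.16, adjusted p = 0.0157). Cyc1, the cytochrome c1 that gives its electron to cytochrome c, read 14551, 15574 and 16828 in the CD34+ RNAs, against 13495, 11641 and 11617 in the CD34- RNAs, again without overlap (log2 difference 0.35 ± 0.09, adjusted p = 0.0242). The core proteins Uqcrc1 and Uqcrc2, which form the matrix side of the complex, did not pass. Uqcrc1 read 5816, 5946 and 7056 in the CD34+ RNAs, against 5633, 5428 and 5072 in the CD34- RNAs, apart but by little (log2 difference 0.22 ± 0.10, adjusted p = 0.178). A dimmer Uqcrc1 probe set on MG_U74Bv2 read 677, 576 and 731 in the CD34+ RNAs, against 481, 393 and 201 in the CD34- RNAs, also apart and with a larger difference, and was not called (log2 difference 0.77 ± 0.29, adjusted p = 0.219). Uqcrc2 read 2381, 2615 and 2763 in the CD34+ RNAs, against 2435, 2003 and 2669.8 in the CD34- RNAs, with overlap (log2 difference 0.13 ± 0.13, adjusted p = 0.531). Uqcr11, a small subunit, had the second largest difference of the complex on the probe sets that stand for the genes, with the third CD34- RNA (2538) above the first CD34+ RNA (2461), and missed the threshold (log2 difference 0.61 ± 0.18, adjusted p = 0.0545). It was called higher without the first CD34+ or without the third CD34- RNA. Uqcrh was not called without the second or the third CD34+ RNA (adjusted p up to 0.0636), and Cyc1 not without the second or the third RNA of either group (adjusted p up to 0.0813).

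Cytochrome c itself, Cycs, the mobile carrier that also triggers caspase activation when released, read 677, 851 and 943 in the CD34+ RNAs, against 460.3, 560.3 and 526 in the CD34- RNAs. The lowest CD34+ RNA, the first, was above the highest CD34- RNA, the second (log2 difference 0.62 ± 0.16, adjusted p = 0.029). It was not called without the second or the third CD34+ RNA or without the first CD34- RNA (adjusted p up to 0.104). Its promoter stretch, shown above, holds the NRF1 core.

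Complex IV holds subunits with tissue-specific isoforms. Of its 14 tested genes 4 were higher and 1, Cox6a2, was lower, and Cox6a2 was tested through its CD34- arrays alone. Cox7a2, the widely expressed form of the Cox7a subunit, read 8557, 9088 and 9499 in the CD34+ RNAs, against 5264, 6092 and 6300.0 in the CD34- RNAs. It had the largest rise of the complex, with no overlap, and was called in each of the 6 fits that left out 1 RNA (log2 difference 0.62 ± 0.09, adjusted p = 0.00262). Cox6a1, the widely expressed form of its subunit, read 13202, 13103 and 12109 in the CD34+ RNAs, against 10793, 9842 and 10307 in the CD34- RNAs. The rise was small beside a small spread (log2 difference 0.31 ± 0.07, adjusted p = 0.0202). Cox6a2, the form of the same subunit known from heart and skeletal muscle, read 59.0, 105 and 139 in the CD34+ RNAs, against 541, 446 and 423 in the CD34- RNAs. Every CD34+ RNA was below every CD34- RNA, with the largest difference of any tested member in either direction (log2 difference -1.80 ± 0.25, adjusted p = 0.00179), and the offset shrinks the difference of a dim probe set (-2.14 with a smaller and -1.23 with a larger offset). On each CD34+ array the Cox6a2 signal was below the level needed for testing, and without any 1 of the CD34- RNAs it was not tested.

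**Figure D2:**
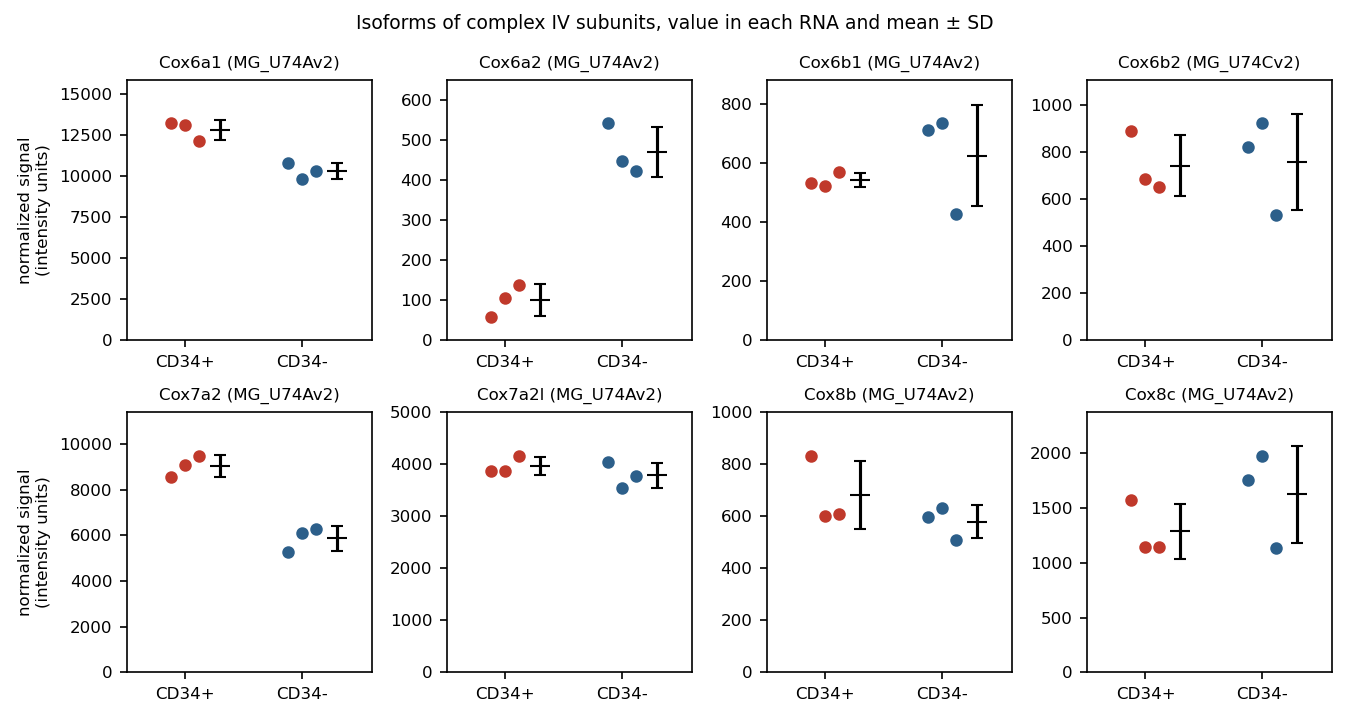
Quantile-normalized signal in each RNA (points; CD34+ red, CD34- blue) with mean ± SD (n = 3) for isoforms of complex IV subunits, each panel on its own axis from 0. Cox6a1 and Cox7a2 lie above in CD34+ RNAs and Cox6a2 lies below, at 59.0 to 139 against 423 to 541; the groups overlap in Cox6b1, Cox6b2, Cox7a2l, Cox8b and Cox8c.

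Cox6c, a small subunit of the membrane part, read 14246, 15672 and 14119 in the CD34+ RNAs, against 11585, 11209 and 12060.2 in the CD34- RNAs, and Cox7b, another small subunit, read 3569, 4582 and 4428 in the CD34+ RNAs, against 2986, 2933 and 3342 in the CD34- RNAs. Both were apart and passed the test (log2 differences 0.34 ± 0.07, adjusted p = 0.0134, and 0.43 ± 0.12, adjusted p = 0.0375). Cox7b was not called without the second or the third CD34+ RNA or the first or the second CD34- RNA, Cox6a1 not without the first or the second CD34+ RNA or the second CD34- RNA, and Cox6c not without the second CD34+ RNA (adjusted p up to 0.143, 0.0988 and 0.0578). With arrays scaled to a common median in place of quantile normalization, Cox6a1, Cox6c, Cox7b and Cyc1 kept a positive difference without passing the test.

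The other muscle-type isoforms were not called. Cox7a1, the heart and muscle form of the Cox7a subunit, read 42.1, 74.7 and 86.3 in the CD34+ RNAs, against 54.9, 27.8 and 37.4 in the CD34- RNAs, too dim to be tested. Cox8b, a form of Cox8 known from muscle and brown fat, read 834, 602 and 610.2 in the CD34+ RNAs, against 597, 632 and 510.2 in the CD34- RNAs, with overlap (log2 difference 0.21 ± 0.16, adjusted p = 0.443). Of 25 marker genes of skeletal and heart muscle on the arrays, 12 were tested, all on MG_U74Av2, with 2 (16.7%) higher and 1 (8.33%) lower in CD34+ clones, where 8.47% and 6.94% of genes were. Acta1, skeletal actin, was lower at 273 to 334 in CD34+ and 602 to 847 in CD34- RNAs (log2 difference -1.10 ± 0.17, adjusted p = 0.00299). Myod1, a factor of the muscle lineage, was higher at 974 to 1167 in CD34+ and 372 to 655 in CD34- RNAs (log2 difference 1.13 ± 0.20, adjusted p = 0.00536), and Tnnt2, cardiac troponin T, was higher as well (log2 difference 0.67 ± 0.14, adjusted p = 0.0129). Summed signals of the 12 were 10122.5 to 11896 in CD34+ and 11936 to 13990.2 in CD34- RNAs. Most of each sum came from 1 probe set of Actc1, cardiac actin, which was not called. Its name ends in _f_at, which marks probes shared among related transcripts. The other Actc1 probe set read 6.44 to 21.7 in CD34+ and 22.9 to 45.2 in CD34- RNAs and was too dim to be tested. The sums of the other 11 genes overlapped (4194 to 4281 in CD34+ and 4081 to 4902 in CD34- RNAs). The part of these muscle genes in the Cox6a2 difference was not tested.

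The remaining isoforms did not pass the test. Cox6b1, the general form, had a log2 difference of -0.16 ± 0.20 on MG_U74Av2 and 0.14 ± 0.32 on MG_U74Cv2, and Cox6b2, the testis form, one of -0.01 ± 0.30. Cox8c, a testis form of Cox8, was at -0.30 ± 0.21 and -0.19 ± 0.26 on its 2 tested probe sets, while Cox8a, the general form, was too dim to be tested, at 27.2, 47.7 and 81.4 in the CD34+ RNAs, against 25.0, 81.0 and 58.9 in the CD34- RNAs. Cox7a2l, which helps join complexes III and IV into supercomplexes, read 3869, 3869 and 4169.8 in the CD34+ RNAs, against 4046, 3553 and 3770.1 in the CD34- RNAs and overlapped (log2 difference 0.07 ± 0.09, adjusted p = 0.664). Cox4i1, a nuclear-encoded subunit that regulates the enzyme, had 3 tested probe sets between -0.23 ± 0.18 and 0.08 ± 0.23, none called.

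Complex V consists of a catalytic head in the matrix, a stalk and a ring of c subunits in the membrane. Of its 14 genes, 11 had a positive difference and 2 were higher, on the probe set that stands for the gene. Atp5a1, the alpha subunit of the head, read 13419, 13861 and 15208 in the CD34+ RNAs, against 10484, 9928 and 10292 in the CD34- RNAs. The CD34+ RNAs lay well clear of the CD34- RNAs (log2 difference 0.47 ± 0.07, adjusted p = 0.00337), and it was called in each of the 6 fits that left out 1 RNA. Atp5mpl, a small proteolipid of the membrane part, read 4708, 3789 and 4735 in the CD34+ RNAs, against 3145, 2121 and 3238 in the CD34- RNAs, with the second RNA lowest in both groups (log2 difference 0.65 ± 0.17, adjusted p = 0.0309). It was not called without the first or the third CD34+ RNA (adjusted p up to 0.104).

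Atp5d, the delta subunit of the central stalk, had 4 tested probe sets on MG_U74Av2. The one called read 1361, 1275 and 1122 in the CD34+ RNAs, against 844, 754 and 829 in the CD34- RNAs (log2 difference 0.60 ± 0.12, adjusted p = 0.0121), and it lost its call without the first or the second CD34+ RNA. The other 3 were at 0.36 ± 0.14, 0.34 ± 0.14 and -0.12 ± 0.19 and were not called, and the brightest of them stands for the gene in the count above. Atp5c1, the gamma subunit of the stalk, had one probe set below in every CD34+ RNA, at 6281, 6048 and 6699 in the CD34+ RNAs, against 7046, 7115 and 7115 in the CD34- RNAs, and another with overlap (-0.16 ± 0.08 and 0.10 ± 0.09 on the log2 scale). Atp5g1 and Atp5g2 encode the same mature c subunit behind different import sequences. Atp5g2 read 2089.8, 2133 and 2005 in the CD34+ RNAs, against 1778, 1883 and 1762 in the CD34- RNAs, apart but not called (log2 difference 0.19 ± 0.10, adjusted p = 0.22), and Atp5g1 overlapped on both of its probe sets (-0.07 ± 0.23 and -0.12 ± 0.25).

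**Figure D3:**
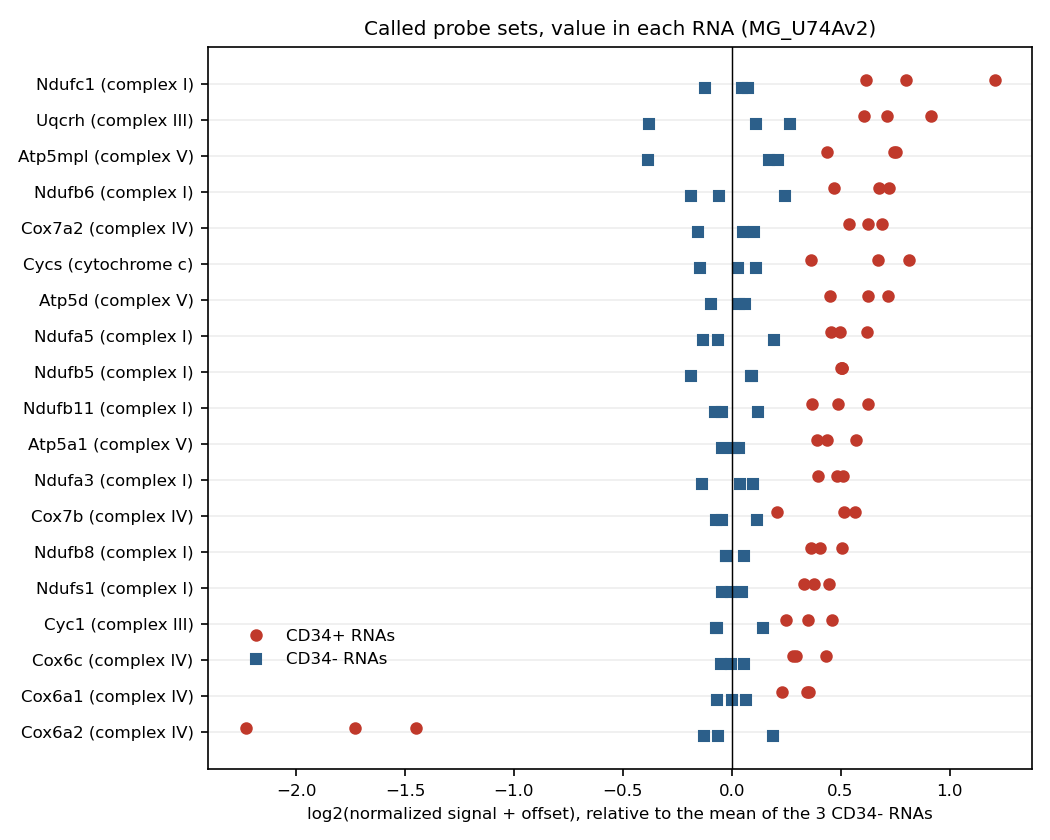
Log2(signal + offset) of the 19 called probe sets in each RNA, set relative to the mean of the 3 CD34- RNAs and ordered by the difference (red circles CD34+, blue squares CD34-). In all 19 rows the colours are separate; Ndufc1 is at the top with 0.87 and Cox6a2 at the bottom with -1.80.

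Medians over the member genes were higher in each CD34+ RNA than in any CD34- RNA. Of the 65 genes represented on MG_U74Av2, 2 encode assembly factors of complex I. Over the 65 genes represented on MG_U74Av2, the median signal relative to the CD34- mean was 0.14, 0.19 and 0.23 on the log2 scale in the CD34+ RNAs, against 0.04, -0.06 and 0.03 in the CD34- RNAs. Over all 5748 genes there it was 0.03, 0.03 and 0.02 in the CD34+ RNAs, against 0.00, -0.02 and 0.03 in the CD34- RNAs. The groups were apart in complex I, complex V and cytochrome c, and also in complex III. In complex II and complex IV they overlapped. These medians describe the same values that gave the calls and are no further test.

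**Figure D4:**
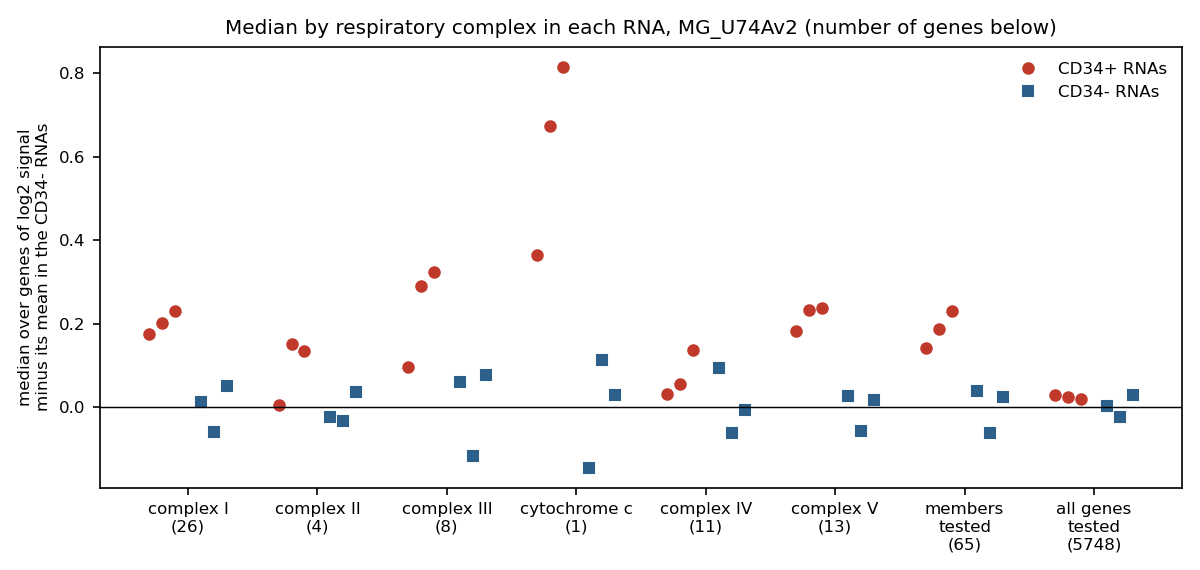
Median over genes of log2 signal minus its mean in the CD34- RNAs, for each RNA on MG_U74Av2, by complex, with the number of genes in brackets. CD34+ RNAs (red circles) lie above CD34- RNAs (blue squares) in complexes I, III and V and cytochrome c, overlap in complexes II and IV, and lie near 0 for all genes.

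Arrays of MG_U74Av2 were washed on 2 fluidics stations, each of which held both groups. The tested members had a median log2 difference of 0.16 within station 1 (1 RNA of each group, the first CD34+ and the third CD34-), against 0.02 over all probe sets. Within station 2 (2 RNAs of each group) it was 0.20, against 0.01, and 12 members were higher and 3 lower. The share of all probe sets called within station 2 is not given. With the station as a block, 16 members were higher and 1 lower, where 531 of all 7634 probe sets were higher and 455 lower.

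The other chip types gave no call among members. On MG_U74Bv2, 12 of 14 probe sets were tested. By limma 0 were called in either direction, where 0.685% of all probe sets were higher and 0.401% lower. An unadjusted p under 0.05 was reached by 4 of the 12, and by 1268 of all 7737 probe sets tested. In 10 of the 12 the difference was positive, and in 6 the CD34+ RNAs were all above, where 12.8% of all were, and in 1 all below, where 10.2% were. On MG_U74Cv2, 25 of 33 were tested with 0 calls, where 0.0401% of all were higher and 0.0535% lower. An unadjusted p under 0.05 was reached by 0 of the 25, and by 661 of all 7481 probe sets tested. There 1 had all CD34+ RNAs above and 1 all below, where 7.41% and 6.71% of all did. The difference was positive in 15 of the 25 and negative in 10. Their median log2 difference was 0.06, against 0.30 for members on MG_U74Bv2 and 0.15 on MG_U74Av2. The median standard error of a member was 0.21 on MG_U74Bv2 and 0.29 on MG_U74Cv2, against 0.12 on MG_U74Av2, so a difference of the size seen there was less well resolved. On these chip types station 1 held all 3 CD34+ arrays and 1 CD34- array. With the station as a block 0 members were called by limma on either, and the member medians were 0.29 and 0.04. In those fits 1 of all 7737 and 0 of all 7481 probe sets were higher, and 0 were lower.

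Probe sets of the same gene often differed. Of 27 genes with more than 1 tested probe set, 15 had them all on the same side of 0. For the 9 called genes among them, 8 of the 13 other probe sets were above 0 and 0 were called by limma. Opposite signs occurred in Cyc1 (-0.31 ± 0.17 on its second probe set), Uqcrh (-0.21 ± 0.32 and -0.17 ± 0.49 on MG_U74Cv2), Cox7a2 (-0.05 ± 0.23 on MG_U74Cv2) and Atp5d. Cyc1, Uqcrh, Cox7a2 and Atp5d were thus called on 1 of their probe sets each. Ndufb6, in contrast, was at 1.06 ± 0.53 on MG_U74Cv2, and Cox6a1 at 0.29 ± 0.16 on MG_U74Bv2, both in the direction of the call without passing.

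**Figure D5:**
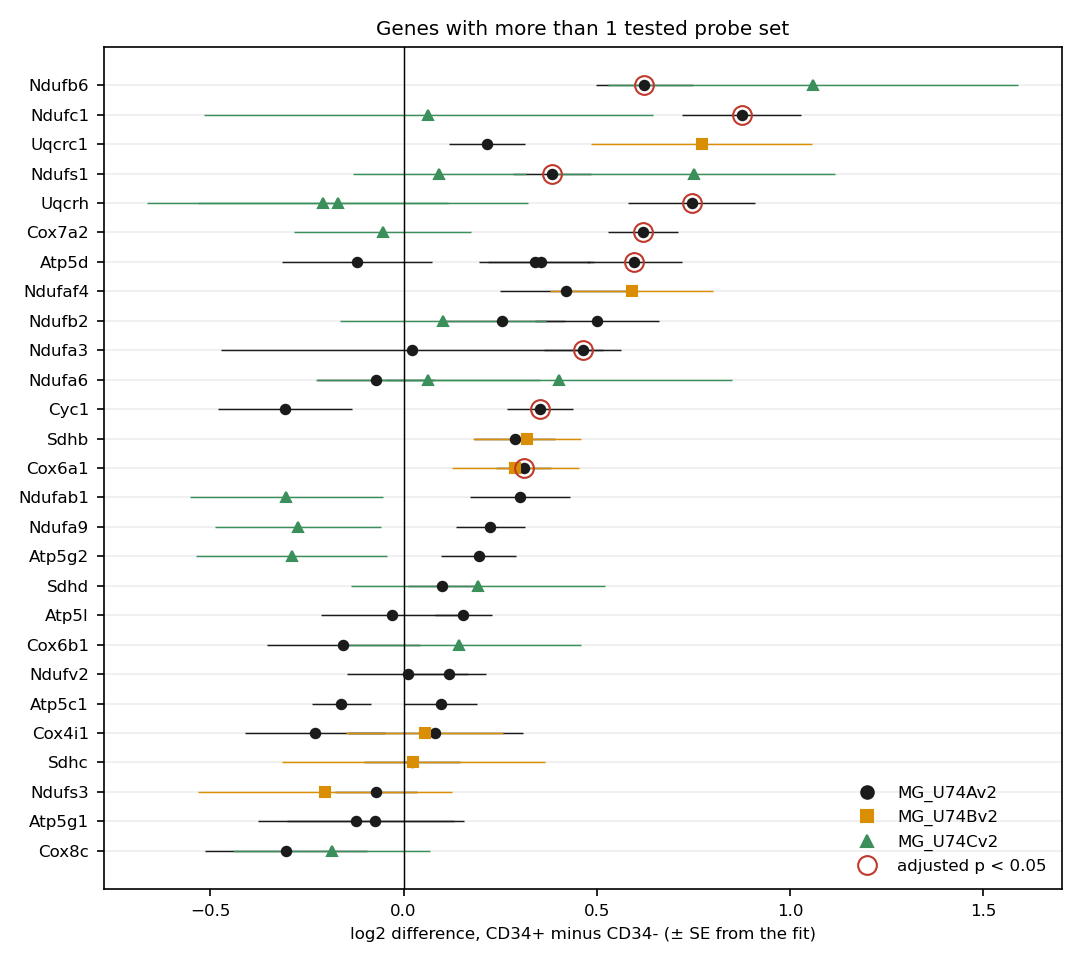
Log2 difference (CD34+ minus CD34-, with the standard error of the fit) of every tested probe set of the 27 genes with more than 1, by chip type; rings mark the 9 called at an adjusted p under 0.05. In Cyc1, Uqcrh, Cox7a2 and Atp5d a called probe set stands beside one on the other side of 0.

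Of the 18 higher probe sets, 12 have names that end in a plain _at, 5 end in _f_at and 1 in _s_at, endings by which the maker marks probes shared among related transcripts. Respiratory chain genes have many processed pseudogenes, so values of Ndufa3, Ndufb5, Ndufa5, Cox6a1, Cox6c and Atp5d may hold signal of a near-identical copy. A further 16 probe sets carried several symbols of which at least 1 fits the rule, and they were left out of the counts. Of 12 of them that were tested, 1 was higher, 0 were lower and 10 had a positive difference. The 1 was on MG_U74Av2, where 8.21% of all probe sets were higher.

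Lists of genes that serve the chain without being subunits were counted in the same way. All of their calls were on MG_U74Av2, where 8.47% of genes were higher and 6.94% lower. An unadjusted p under 0.05 was reached by 2635 of all 11969 genes, and by 1720 of the 5748 on MG_U74Av2. Fits that left out single RNAs were not made for these lists. The list of assembly factors of all complexes shares its 7 Ndufaf genes with the members counted above. Of its 43 tested genes, 4 were higher and 1 lower (of 20 on MG_U74Av2), with a median of 0.19. Acad9, which works in complex I assembly, rose (log2 difference 0.81 ± 0.14, adjusted p = 0.00548), as did Cox16, an assembly factor of complex IV (log2 difference 0.62 ± 0.13, adjusted p = 0.014), and Higd1a, a small inner-membrane protein that acts on complex IV (log2 difference 0.45 ± 0.12, adjusted p = 0.0322). Foxred1, another factor of complex I, fell (log2 difference -0.44 ± 0.11, adjusted p = 0.0332).

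Electrons also reach ubiquinone from other enzymes, and of 17 such genes and genes of ubiquinone synthesis 3 were higher and 1 lower (of 12 on MG_U74Av2), with a median of 0.14. Gpd2, the mitochondrial glycerol-3-phosphate dehydrogenase, and the synthesis enzymes Coq3 and Coq7 were higher. Coq7 read 389 to 453 in CD34+ and 178 to 287 in CD34- RNAs (log2 difference 0.72 ± 0.20, adjusted p = 0.0378), Coq3 916 to 1039 in CD34+ and 639 to 654 in CD34- RNAs (log2 difference 0.57 ± 0.12, adjusted p = 0.0123) and Gpd2 722 to 792 in CD34+ and 482 to 543 in CD34- RNAs (log2 difference 0.55 ± 0.13, adjusted p = 0.0202). Dhodh, an enzyme of pyrimidine synthesis that passes electrons to ubiquinone, was lower at 1289.5 to 1638 in CD34+ and 2031 to 3181 in CD34- RNAs (log2 difference -0.75 ± 0.17, adjusted p = 0.0187).

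Of 22 genes of the citrate cycle and of pyruvate entry, 6 were higher (of 18 on MG_U74Av2) and 0 lower by limma (9 at an unadjusted p under 0.05 in either direction), with a median of 0.19. Mdh2, the mitochondrial malate dehydrogenase, read 10591 to 12060.2 in CD34+ and 6844 to 7524 in CD34- RNAs (log2 difference 0.63 ± 0.08, adjusted p = 0.00127), and Idh2, an NADP-dependent isocitrate dehydrogenase, 2513 to 2864 in CD34+ and 1751 to 2021 in CD34- RNAs (log2 difference 0.51 ± 0.10, adjusted p = 0.0119). Among the 6 were also Pdk3 (log2 difference 0.65 ± 0.10, adjusted p = 0.0031) and Pdk1 (log2 difference 0.61 ± 0.18, adjusted p = 0.0484), kinases that switch pyruvate dehydrogenase off.

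Of 16 genes for mitochondrial membrane proteins and chaperones, 3 were higher (of 13 on MG_U74Av2) and 0 lower by limma (8 at an unadjusted p under 0.05 in either direction), with a median of 0.15. These were Hspa9 (log2 difference 0.42 ± 0.09, adjusted p = 0.0115) and Hspe1 (log2 difference 0.28 ± 0.08, adjusted p = 0.0451), chaperones of the matrix, and Phb2, a prohibitin (log2 difference 0.40 ± 0.09, adjusted p = 0.0152). Regulators of respiratory gene transcription and keepers of mitochondrial DNA, among them Nrf1, Gabpa, Yy1 and Tfam, gave 0 calls by limma and 0 at an unadjusted p under 0.05 among 17 tested, with a median of 0.11.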

How the data were processed

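The samples were 3 total RNAs of CD34+ clones and 3 of CD34- clones, each measured on 3 Affymetrix chip types. The deposited tables hold a linear intensity for every probe set, which the authors computed with MAS5, per the submitters' processing notes (version and scaling not given in the sources used here). The CD34- arrays lay 14.1 to 120 times below the CD34+ arrays, so deposited values were not comparable as they stood.

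From the deposited intensities, 66 control probe sets per chip type were removed, the 6 arrays were quantile normalized (limma 3.58.1, R 4.3.3), and the 20th percentile (51.5, 106 and 97.9 on the A, B and C chip types) was added before log2, which understates changes of dim probe sets. Probe sets above the 40th percentile of an array on 3 or more of 6 arrays were fitted with limma (lmFit, eBayes with trend), two-sided, with Benjamini-Hochberg adjustment over the chip type and calls at an adjusted p under 0.05. A gene was represented by its brightest tested probe set on the first chip type (A, B, C) that had one. Arrays have no read depth, and their number limits the precision. Symbols came from GEO's platform annotation and promoters from RefSeq (GRCm38.p6). The fit was tested on simulated data.

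The members and lists were chosen with earlier results of these data known. Named with values were all called members, isoform pairs, the genes of complex II, Cycs, Cyc1, Uqcrc1, Uqcrc2, genes with conflicting probe sets, and up to 4 called genes of each other list; members such as Ndufv1, Ndufs7, Ndufa7, Ndufa10, Ndufaf3, Ndufaf4, Uqcr11 and Atp5c1 were added after their values were seen. Same-numbered RNAs did not deviate together (correlations -0.0493 to 0.0701), so the numbers do not pair them. The alternatives were other scalings, offsets and filters, no trend, a replicate block, the fluidics station, plain probe sets, and leaving out each RNA.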

Additional observations from a re-analysis of the deposited data

How the results depend on the processing

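Over 745 comparisons of a called or isoform probe set with an alternative, 683 kept their side of the threshold. In 60 the call was lost, in 2 one was gained, and 0 calls reversed. The 745 include probe sets without a call, which have none to lose, so 60 of 745 understates how often calls were lost. Among the 19 called probe sets, a smaller offset lost 0 calls and leaving out the second CD34+ RNA lost 10. A probe set without a call counted as kept where it stayed without one, whatever its sign. Of the calls, those of Ndufb5, Ndufb6, Ndufc1, Cox6a2, Cox7a2 and Atp5a1 held under every alternative that tested them. Over all tested members, 17 calls were gained on 10 probe sets, most often by Uqcr11 and Ndufb2. The cause of the changes was not tested unless said. On MG_U74Av2, leaving out 1 RNA at a time gave 9 to 19 higher and 0 to 2 lower members (on MG_U74Bv2 and MG_U74Cv2 0 of either), the 2 lower being Ndufv1 and Ndufa7 without the third CD34- RNA. Without any 1 CD34- RNA the lower member, Cox6a2, did not pass the filter, and a filter at the 60th percentile on all arrays gave 0 lower for the same reason. Deposited values left unscaled made 76, 12 and 25 members higher and 0 lower on the A, B and C chip types, by construction, since the median of all probe sets then shifts by 3.70, 5.22 and 6.30 on the log2 scale. A replicate block gave 17 higher and 1 lower members on MG_U74Av2, where 504 of all 7634 probe sets were higher and 452 lower. Without an intensity trend 12 members were higher. Within station 2 there were 12 higher and 3 lower, Cox6a2 with Cox8c and the second Cyc1 probe set. The share of all probe sets called is not given for the fits without a trend, within station 2 or without 1 RNA. The median over all member genes was 0.13 with the mean of all probe sets of a gene. For complex I it was 0.17 with a common trimmed mean, 0.14 without a filter, 0.095 within station 1, 0.12 with plain probe sets, 0.13 with the mean of probe sets and 0.15 to 0.20 on leaving out 1 RNA. Complex II turned to -0.079 within station 1 and was 0.14 within station 2 and 0.022 to 0.12 on leaving out 1 RNA. Complex III was 0.027 within station 1. Complex IV was 0.14 with the station as a block, 0.23 within station 1 and 0.053 to 0.17 on leaving out 1 RNA. Complex V was 0.12 within station 1, 0.089 with plain probe sets, 0.16 with the mean of probe sets and 0.16 to 0.22 on leaving out 1 RNA. Station 1 compares 1 RNA of each group, so it has no test. Counting Ndufa4 with complex I was not run, because no probe set with that single symbol was among the members, and leaving out Cox7a2l changed no call.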
